A study of Rattus norvegicus with 6 samples.

Results

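Red blood cells carry a small set of miRNAs at very high levels, above all those of the hairpins miR-451, miR-144 and miR-486. They were followed here in the hypothalamic arcuate nucleus (ARC), the region at the base of the hypothalamus that holds the beta-endorphin neurons. All rows with 1 of these 3 hairpin names were taken, whichever arm of the hairpin they came from, which gave 3 of the 562 mature miRNAs listed: miR-451-5p, miR-144-5p and miR-486 (rno-miR-451-5p, rno-miR-144-5p and rno-miR-486 in the tables, for Rattus norvegicus). The other arms of these hairpins were not analysed here. miR-451-5p is also among the miRNAs that the study picked from these libraries for a rise after injury, so its direction here is not independent evidence of that rise.

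The samples were ARC tissue of Sprague-Dawley rats aged 8 to 10 weeks, on Day 14 after surgery. In CCI-ION rats (chronic constriction injury of the infraorbital nerve, a model of trigeminal neuropathic pain) the left nerve was loosely tied with silk. In sham rats that nerve was exposed on 1 side and left untied. There were 3 libraries per group. The study counts more rats per group than libraries for this sequencing, so a library may hold pooled tissue, and which rats went into which library is not given in the sources used here. The p-values therefore measure the spread between libraries, which may be technical. For ARC tissue used in RT-qPCR the study's methods describe decapitation and removal of the brain and name no perfusion step, and the labels do not say whether the sequenced tissue was handled likewise.

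miR-451 and miR-144 are made from neighbouring hairpins of 1 primary transcript, which the erythroid transcription factor GATA1 switches on as red cells mature. miR-451 is the known exception to Dicer processing, because its hairpin is too short for Dicer and is cut by the slicer Argonaute 2 instead. miR-486 is encoded in the Ank1 gene, which serves red cells and muscle, so it is less particular to blood. In tissue that has not been flushed of blood these miRNAs are commonly read as a sign of red cells left in the vessels.

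The mature sequences identify the members and show how distinct they are from other miRNAs. They are given 5′ to 3′ as RefSeq lists them for assembly GRCr8, with the seed (bases 2 to 8, which pair with target mRNAs) in capitals. RefSeq sequences were found for 2 of the 3 members, miR-451-5p at chr10:63459585-63459606 and miR-144-5p at chr10:63459409-63459431, both on the + strand.
miR-451-5p: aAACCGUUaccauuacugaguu
miR-144-5p: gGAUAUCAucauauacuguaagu
No other listed miRNA with a RefSeq sequence carried either seed. The nearest other sequence among the 512 listed miRNAs with a RefSeq sequence was miR-336-5p for miR-451-5p and miR-190a-5p for miR-144-5p, each at 8 edits.

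On GRCr8 the Mir144 hairpin (chr10:63459397-63459479) lies 89 bases before the Mir451a hairpin (chr10:63459569-63459640) on the same strand. Both hairpins were folded with RNAfold to see where the mature miRNA sits. In the 72-base Mir451a hairpin the mature sequence ran from base 17 to base 38 and took in the whole predicted terminal loop, bases 35 to 38. In the 83-base Mir144 hairpin miR-144-5p ended at base 35, before the loop of 6 bases that began at base 38. The predicted folds thus place the end of miR-451-5p in the loop and keep miR-144-5p within the stem.

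The deposited values, called normalized counts here, are reads scaled by library size factors. Wherever 3 values of a group follow each other they are in replicate order, 1 to 3. The 6 libraries held between 8628309 and 14313839 reads in these miRNAs, and the 2 with the fewest reads were CCI-ION replicates 2 and 3. No value above 0 stood for fewer than 5 reads, so a miRNA listed at 0 may have had up to 4 reads and need not be absent. Values of the ARC's cell types were checked with miRNAs of neurons (miR-9a-5p, miR-128-3p and miR-124-3p), oligodendrocytes (miR-219a-2-3p, miR-338-5p and miR-338-3p) and the hypothalamus and pituitary (miR-7a-5p, miR-7b and miR-375-3p). All 13 miRNAs of these lists were listed in the tables and none was at 0 throughout. Among the 555 miRNAs tested, 38 (6.85%) passed an adjusted p of 0.05 in limma, 19 higher (3.42%) and 19 lower (3.42%) in CCI-ION rats. An unadjusted p under 0.05 was reached by 183 (33%). Higher calls, 50% here, were 82.4% of all calls when libraries were scaled by their total count and 10.6% when scaled by their upper quartile.

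The 3 miRNAs stood at very different levels and had different patterns across the libraries. miR-486 was the most abundant, at rank 133 to 160 among the 562 miRNAs of a library, and its level overlapped between the groups. miR-451-5p was at rank 266 to 337 and its level in CCI-ION rats was about 2-fold that in sham rats. miR-144-5p lay at the detection limit, with at most 10 reads in any library.

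miR-451-5p, the miRNA most closely tied to red cells, had 233, 242 and 137 normalized counts in the sham libraries, from 204, 291 and 163 reads. The CCI-ION libraries held 473, 418 and 366 normalized counts, from 508, 343 and 340 reads. The lowest CCI-ION library was above the highest sham library, and sham replicate 3 lay below the other sham libraries. In RPM, the usual scaling of reads by library totals, sham replicate 3 had 11.4, with an exact 95% binomial interval of 9.71 to 13.3. The intervals of sham replicates 1 and 2 were 15.9 to 21.1 and 19.0 to 24.0, so the gap within the sham group was larger than counting error, which is all that these intervals cover.

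The group means of miR-451-5p were 204 ± 58.0 for sham and 419 ± 53.3 for CCI-ION rats (normalized counts, n = 3, SD), a ratio of 2.05. On the scale of log2(normalized count + 1) the difference was 1.07 (standard error 0.26, 95% interval 0.43 to 1.71). It did not pass the threshold over all miRNAs tested (limma, Benjamini-Hochberg adjusted p = 0.0649), but did with total-count scaling (limma adjusted p = 0.0411) and when only miRNAs with a mean of at least 10 were tested (0.0395). Groups that do not overlap with CCI-ION higher, as here, were found for 19.5% of all miRNAs tested. The log2 fold change ranked 35 among the 555 miRNAs, and 95.2% of the 83 miRNAs of like abundance (a mean within 2-fold of it) had a lower one. Its spread within groups, a pooled SD of 0.35 on the log2 scale, was above that of 80.7% of those miRNAs, for which the median was 0.22.

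miR-486 had 3553, 2981 and 2694 normalized counts in the sham libraries, from 3109, 3586 and 3196 reads. The CCI-ION libraries held 2945, 3235 and 2532 normalized counts, from 3165, 2657 and 2352 reads. The groups overlapped, with the highest and the lowest library in different groups. The means were 3076 ± 437 in sham and 2904 ± 353 in CCI-ION rats (n = 3, SD). The log2 fold change was -0.08 (standard error 0.16, 95% interval -0.48 to 0.32, limma adjusted p = 0.749), so the interval covers a change in either direction and its upper end is below the 1.07 of miR-451-5p. The size and sign of this difference depend on the scaling: it was 0.12 when libraries were scaled by their total count and -0.33 with upper-quartile scaling (limma adjusted p = 0.169). The pooled SD within groups was 0.19 on the log2 scale, equal to the median of 0.19 over 84 miRNAs of like abundance.

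miR-144-5p was listed at 11.4, 0 and 5.90 normalized counts in the sham libraries, which is 10 reads, fewer than 5 reads and 7 reads. In the CCI-ION libraries it was listed at 0, 7.31 and 0 normalized counts, of which the middle value is 6 reads. It was thus seen in 2 of 3 sham libraries and in 1 of 3 CCI-ION libraries, and the groups overlapped. The fitted log2 fold change of -1.12 had a standard error of 1.27 (95% interval -4.28 to 2.04, limma adjusted p = 0.556) and depends on the value taken for 0. No difference was detectable at this depth.

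**Figure D1:**
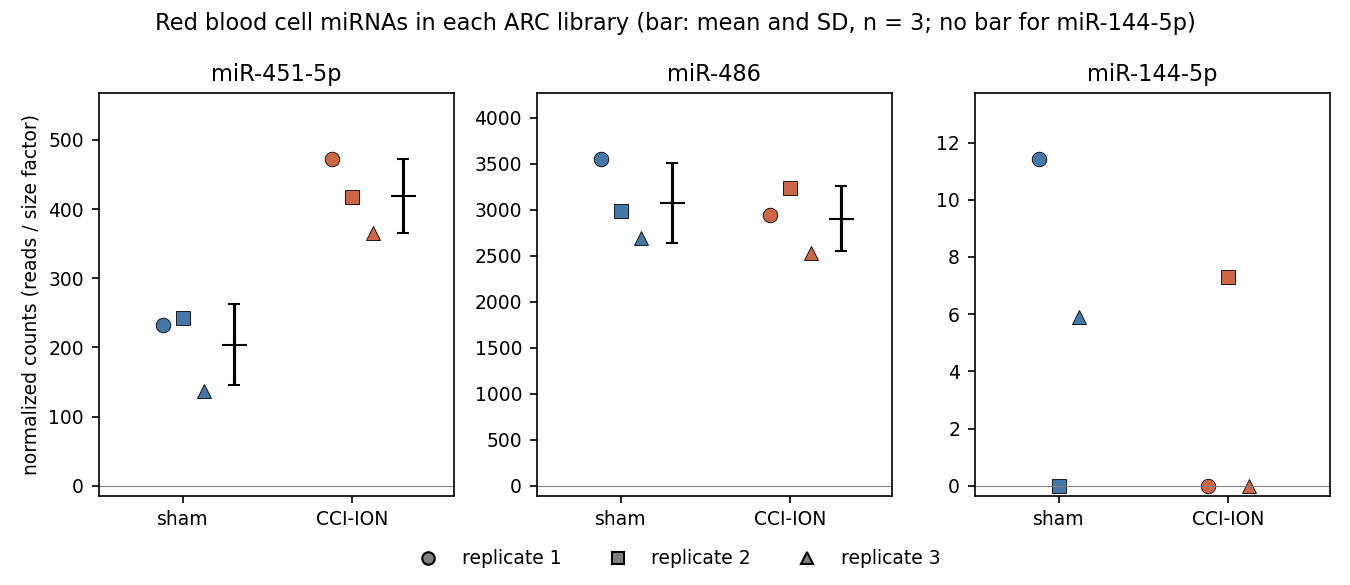
Normalized counts (reads divided by the size factor of the library) of miR-451-5p, miR-486 and miR-144-5p in the 3 sham and 3 CCI-ION libraries, 1 symbol per replicate, with mean and SD beside them except for miR-144-5p. The CCI-ION libraries of miR-451-5p sit between 366 and 473 and all sham libraries at or below 242, whereas the groups overlap for the other 2 miRNAs.

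Whether the members move together was read within each library, because a ratio of 2 miRNAs of the same library does not depend on how libraries were scaled, apart from the 1 added for the log scale. Ratios were taken as log2 after adding 1 to each normalized count, and 7 ratios were compared between groups with exact permutation tests, two-sided, which cannot give a p below 0.1 with 3 libraries against 3. Of the 7, 3 set miR-451-5p against miRNAs chosen after their like fold changes were seen and are given as values with no p. These 3 still count among the 7 ratios of the adjustment, which makes the adjusted p of the other ratios larger.

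Per normalized count of miR-451-5p there were 15.2, 12.3 and 19.5 of miR-486 in the sham libraries. The same ratio was 6.22, 7.73 and 6.90 in the CCI-ION libraries. Every CCI-ION library had fewer miR-486 counts per miR-451-5p count than any sham library. The mean log2 ratio of miR-486 to miR-451-5p was 3.94 ± 0.33 in sham and 2.79 ± 0.16 in CCI-ION rats (n = 3, SD), a difference of -1.15 (exact permutation p = 0.1, 0.233 adjusted over the 7 ratios). The same held for most of the table, since 71.1% of the other miRNAs tested were lower in their ratio to miR-451-5p with no overlap between groups.

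The shared primary transcript of miR-451 and miR-144 was read in the same way. The log2 ratio of miR-144-5p to miR-451-5p was -4.24, -7.92 and -4.33 in the sham libraries. It was -8.89, -5.66 and -8.52 in the CCI-ION libraries, where the low values belong to libraries with miR-144-5p listed at 0. The groups overlapped and the difference of -2.19 did not pass (exact permutation p = 0.2, 0.35 adjusted over the 7 ratios). It was -3.41 without sham replicate 2, -3.21 without CCI-ION replicate 2 and -3.26 with a pseudocount of 0.1, and -1.56 without sham replicate 1. The library with the most miR-451-5p, CCI-ION replicate 1, had miR-144-5p listed at 0.

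Within groups, miR-451-5p and miR-486 were both lowest in replicate 3 of each group. The share of all miRNAs with this pattern was not counted. Sham replicate 3 lay 0.52 below the sham mean for miR-451-5p and 0.18 below it for miR-486 on the log2 scale, and CCI-ION replicate 3 lay 0.19 below the CCI-ION mean for both. Their highest libraries differed, being sham replicate 2 and CCI-ION replicate 1 for miR-451-5p and sham replicate 1 and CCI-ION replicate 2 for miR-486. No correlation is given, because the groups are apart for miR-451-5p and each holds 3 libraries.

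miR-23a-3p, whose level in plasma is little affected by red cell lysis, is the denominator of a common haemolysis ratio in plasma. It was used here as a reference from outside the set. Whether it serves as such in brain tissue was not tested. The mean of miR-23a-3p was 5960 ± 973 in sham and 6934 ± 1069 in CCI-ION rats (normalized counts, n = 3, SD), a log2 fold change of 0.22 (limma adjusted p = 0.423) that was -0.03 with upper-quartile scaling. It lies at chr19:40859778-40859798, close to miR-27a-5p (chr19:40859655-40859676, both on the - strand of GRCr8). miR-27a-5p had a log2 fold change of 0.91 (limma adjusted p = 0.0827) and is among the nearest profiles of miR-451-5p given below. The log2 ratio of miR-451-5p to miR-23a-3p was -4.92, -4.52 and -5.24 in the sham libraries and -3.68, -4.28 and -4.17 in the CCI-ION libraries. All CCI-ION libraries lay above all sham libraries, with a difference of 0.85 (exact permutation p = 0.1, 0.233 adjusted over the 7 ratios), as did 6.32% of all miRNAs set against miR-23a-3p. The log2 ratio of miR-486 to miR-23a-3p was lower after injury, at -0.95 ± 0.05 in sham and -1.25 ± 0.18 in CCI-ION rats (n = 3, SD; exact permutation p = 0.1, 0.233 adjusted), without overlap, as did 25.5% of all miRNAs set against miR-23a-3p.

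**Figure D2:**
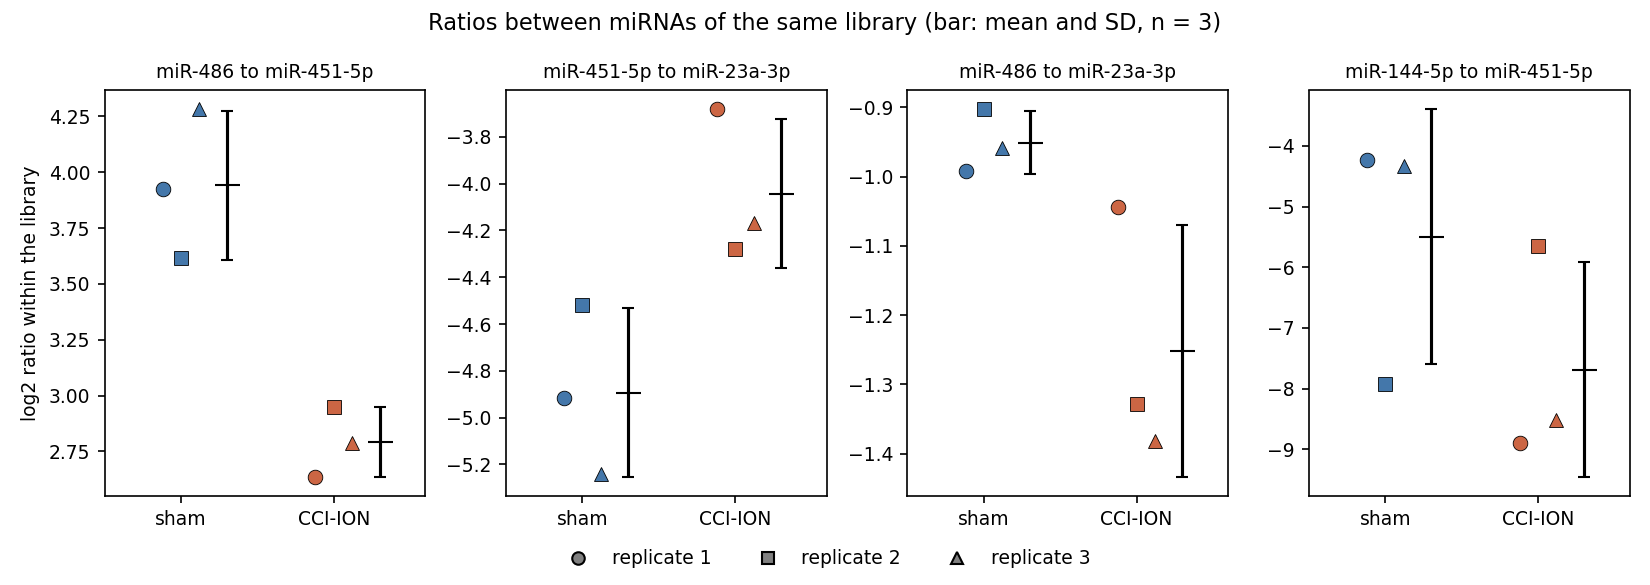
log2 ratio of the first to the second miRNA named above each panel within each library, 1 symbol per replicate, with the mean and SD of the 3 libraries of a group beside them. The groups do not overlap in the first 3 panels, with a difference of -1.15 for miR-486 to miR-451-5p, and overlap for miR-144-5p to miR-451-5p, whose low values come from libraries with miR-144-5p listed at 0.

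Other blood and vessel miRNAs were described by lists. For 10 miRNAs that are abundant in red cells but made in many tissues, the median log2 fold change was 0.28, against -0.01 over all miRNAs tested. With upper-quartile scaling these medians were 0.03 and -0.25. Without CCI-ION replicate 2 the median of the 10 was 0.16. None of the 10 passed the threshold (limma), 5 had an unadjusted p under 0.05 (33% of all miRNAs tested), and their signs were mixed, with 7 above and 3 below 0. The groups did not overlap for 5 of them with CCI-ION higher (19.5% of all miRNAs tested) and for 2 with CCI-ION lower (21.3% of all). Their summed level was 31284 to 34735 normalized counts over the sham and 33448 to 42555 over the CCI-ION libraries. The most abundant, miR-185-5p, had 13910 ± 239 normalized counts in sham rats and 11439 ± 865 after injury (n = 3, SD; log2 fold change -0.28, limma adjusted p = 0.143, or 0.0420 with upper-quartile scaling). With total-count scaling its log2 fold change was -0.08 (limma adjusted p = 0.645). The next, miR-25-3p of the miR-106b cluster, had a log2 fold change of 0.24 (-0.0024 with upper-quartile scaling) and the related miR-92a-3p of the miR-17-92 cluster 0.32 (0.07 with upper-quartile scaling), with adjusted p of 0.321 and 0.200 (limma). Without CCI-ION replicate 2 miR-25-3p was at 0.13 and miR-92a-3p at 0.20. miR-16-5p, the usual miRNA named beside miR-451 in red cells, averaged 1280 ± 99.8 in sham and 906 ± 191 in CCI-ION rats (normalized counts, n = 3, SD; log2 fold change -0.52, limma adjusted p = 0.137). It stood lower in all CCI-ION libraries. Its log2 fold change was -0.32 with total-count scaling and -0.34 without CCI-ION replicate 2. On the other side, miR-182, miR-106b-5p and miR-363-3p stood higher in all CCI-ION libraries, as miR-451-5p did, with log2 fold changes of 1.21, 0.86 and 0.50 (limma adjusted p of 0.107, 0.104 and 0.0828, the last 0.0356 with total-count scaling). These 4 were named after their values were seen. With upper-quartile scaling miR-363-3p was at 0.26 (limma adjusted p = 0.189).

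Leukocytes and platelets would come with whole blood, and 7 of their miRNAs were listed. None passed the threshold (limma), 3 had an unadjusted p under 0.05 (33% of all miRNAs tested), and the median log2 fold change was 0.06, or -0.19 with upper-quartile scaling. Their summed level ran from 2768 to 3472 normalized counts in sham and from 2247 to 2777 in CCI-ION libraries, mostly from miR-150-5p, a lymphocyte miRNA with a log2 fold change of -0.45 (limma adjusted p = 0.113, or 0.0319 with upper-quartile scaling). With total-count scaling miR-150-5p was at -0.25 (limma adjusted p = 0.284). miR-155-5p, induced in activated immune cells, had a log2 fold change of 0.06 (-0.19 with upper-quartile scaling), and miR-142-5p, found across blood cells, 0.47, with adjusted p of 0.859 and 0.180 (limma). The other arm of that hairpin, miR-142-3p, had an unlike profile across the libraries, as given with the profiles below. miR-223-3p of granulocytes and platelets was singled out after its values were seen. It had 35.4, 42.4 and 59.0 normalized counts in the sham libraries and 78.2, 90.1 and 94.7 in the CCI-ION libraries. These groups did not overlap, and the log2 fold change of 0.95 did not pass the threshold (limma adjusted p = 0.0597), but did with total-count scaling (0.0388). The log2 ratio of miR-451-5p to miR-223-3p differed by 0.12 between groups, a small difference that follows from choosing a miRNA with a like fold change. Of plasma's liver miRNA, miR-122-5p, the mean was 98.9 ± 24.6 in sham and 116 ± 5.10 in CCI-ION rats (normalized counts, n = 3, SD), with overlapping groups.

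Of 4 miRNAs of vascular smooth muscle 2 passed the threshold, both higher in CCI-ION rats (3.42% of all miRNAs tested), and the median log2 fold change of the 4 was 0.77. miR-143-3p rose from 40277 ± 7825 to 86140 ± 7981 normalized counts (n = 3, SD; log2 fold change 1.11, limma adjusted p = 0.0334). miR-145-5p, of the same cluster, rose from 2724 ± 512 to 4847 ± 235 (n = 3, SD; log2 fold change 0.85, limma adjusted p = 0.045, or 0.0533 with upper-quartile scaling). miR-145-3p had a log2 fold change of 0.12 (limma adjusted p = 0.557), which was -0.13 with upper-quartile scaling. Neither call held in every fit: with single libraries left out, the adjusted p ran from 0.0495 to 0.127 for miR-143-3p and from 0.0680 to 0.144 for miR-145-5p, the calls being kept once, for miR-143-3p without CCI-ION replicate 1. The summed level of the list was 35489 to 51879 normalized counts over the sham and 82454 to 97637 over the CCI-ION libraries. Of the 2 endothelial miRNAs neither passed (limma), 1 had an unadjusted p under 0.05 (33% of all), and they had opposite signs, 0.44 for miR-126a-3p and -0.91 for miR-126a-5p, which was -0.44 without CCI-ION replicate 2. The log2 ratios of miR-451-5p to miR-143-3p and to miR-145-5p differed between groups by -0.04 and 0.22, which likewise follows from choosing the 2 members that were called higher.

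The miRNAs of nervous tissue had median log2 fold changes below 0, also with both other scalings. Of 6 neuronal miRNAs 1 passed, miR-124-3p, which fell (log2 fold change -0.78, limma adjusted p = 0.0435, or 0.0788 with total-count scaling), and the median was -0.61. Of 4 miRNAs of oligodendrocytes 1 passed, miR-338-3p, which fell from 516 ± 28.7 to 214 ± 33.1 normalized counts (n = 3, SD; log2 fold change -1.27, limma adjusted p = 0.0190), and the median was -0.92, or -0.56 when only miRNAs with a mean of at least 10 were kept. The call of miR-124-3p was lost with any single library but CCI-ION replicate 1 left out (adjusted p up to 0.144, limma), and that of miR-338-3p with any sham library left out (up to 0.0699). Calls with CCI-ION lower made up 3.42% of all miRNAs tested. An unadjusted p under 0.05 (limma) was reached by 4 of the 6 neuronal and 3 of the 4 oligodendrocyte miRNAs (33% of all). Lower in CCI-ION rats with no overlap between groups were also 4 of the 6 and 3 of the 4 (21.3% of all). The summed level of the oligodendrocyte list was 13685 to 19928 normalized counts over the sham and 10471 to 11304 over the CCI-ION libraries. Of 3 miRNAs of the hypothalamus and pituitary none passed (limma) and all had an unadjusted p under 0.05 (33% of all miRNAs tested), with mixed signs. miR-7a-5p and miR-7b were lower in all CCI-ION libraries and passed with upper-quartile scaling (limma adjusted p of 0.0364 and 0.0287), while miR-375-3p was higher in all of them (log2 fold change 0.58, limma adjusted p = 0.137), and the median was -0.87. The part of vessel, blood or nerve cell content in the level of miR-451-5p was not tested, and in bulk tissue more cells of a type and more RNA per cell cannot be told apart.

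**Figure D3:**
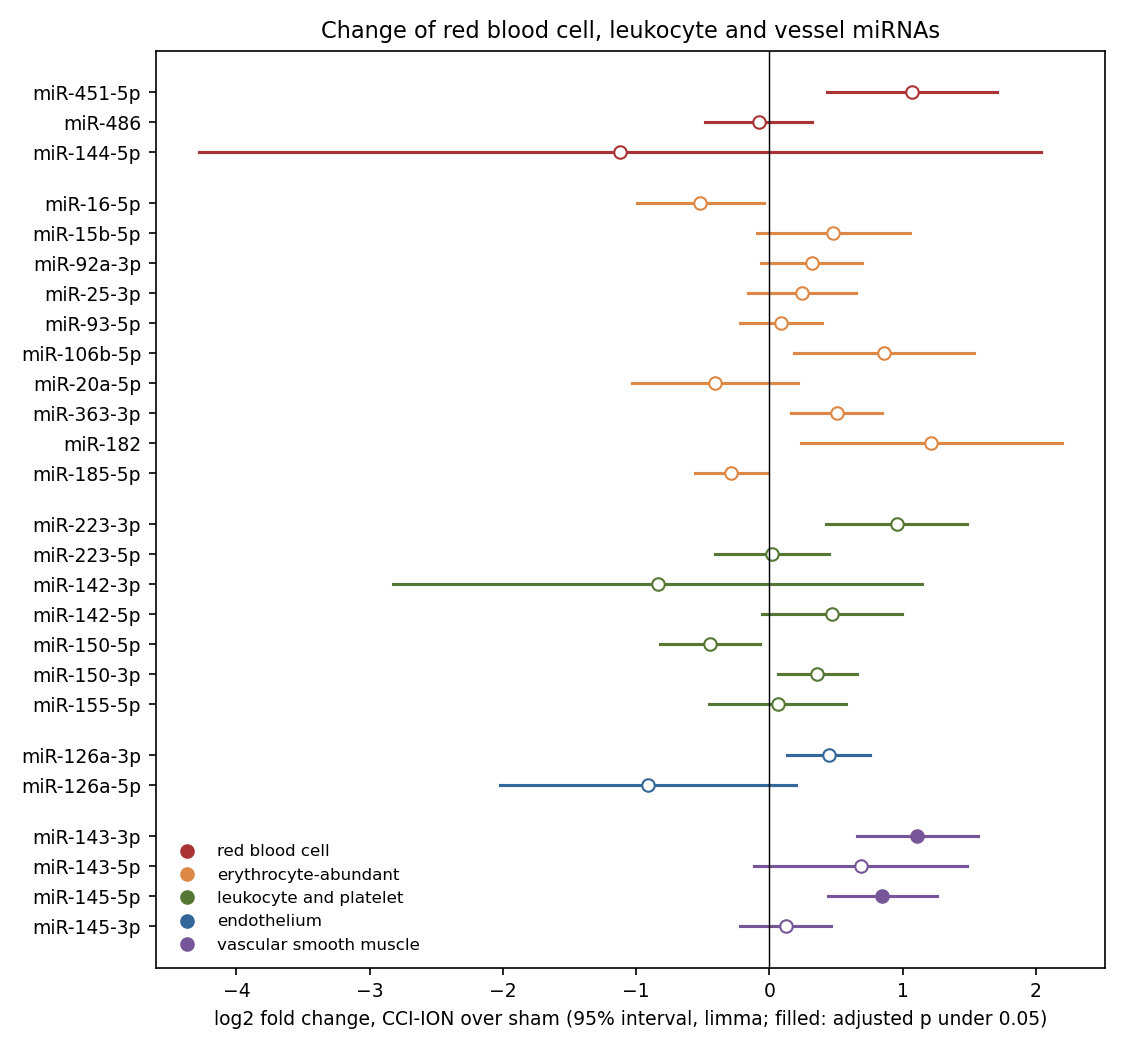
log2 fold change (CCI-ION over sham, on log2(normalized count + 1)) of the 3 red blood cell miRNAs and of the blood and vessel lists, with the 95% interval from limma and a filled circle where the adjusted p was under 0.05. miR-451-5p is at 1.07 and miR-486 at -0.08 with intervals that do not overlap, and miR-143-3p and miR-145-5p carry the filled circles.

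To see what else in the ARC followed miR-451-5p across libraries, profiles of log2(normalized count + 1) were centred on their mean over the 6 libraries and compared by the root mean square difference, for 479 miRNAs that were never listed at 0 and averaged 10 or more. This is a description, and the profiles share the libraries and their scaling. The 5 nearest were miR-184 (0.20), miR-6329 (0.28), miR-27a-5p (0.30), miR-30d-5p (0.32) and miR-452-5p (0.32), against a median difference of 0.64. miR-486 came at rank 205 with 0.61, close to that median. The nearest of the blood and vessel lists was miR-142-5p at rank 14 (0.39), followed by miR-363-3p at rank 34 (0.43), miR-145-5p at rank 40 and miR-143-3p at rank 41 (both 0.44), while miR-16-5p was at rank 416 (0.88). Further off were miR-126a-5p at rank 463 (1.17) and miR-142-3p, the other arm of the miR-142 hairpin, at rank 470 (1.30). miR-144-5p, with 3 libraries listed at 0, had a distant nearest profile, the smallest difference being 1.32, and miR-451-5p stood at rank 449 of 480 for it.

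Mature sequences of the first 3 neighbours are shown to set them beside that of miR-451-5p. No RefSeq sequence was found for miR-30d-5p or miR-452-5p.
miR-184: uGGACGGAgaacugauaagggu
miR-6329: aAUGUGACucagcuaucugaaca
miR-27a-5p: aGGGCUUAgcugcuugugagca
None has the seed of miR-451-5p, AACCGUU, or shares its seed with another of these. Among listed miRNAs with a RefSeq sequence, the nearest to miR-451-5p was at 8 edits. Whether reads were counted for the wrong miRNA was not tested, and seeds alone cannot show it. miR-184, the nearest, is abundant in epithelia and in some neurons. It had 138, 132 and 96.9 normalized counts in the sham libraries and 226, 296 and 200.2 in the CCI-ION libraries. As with miR-451-5p, sham replicate 3 was the lowest library and the groups did not overlap. Its log2 fold change was 0.97 (limma adjusted p = 0.0597, or 0.0356 with total-count scaling).

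**Figure D4:**
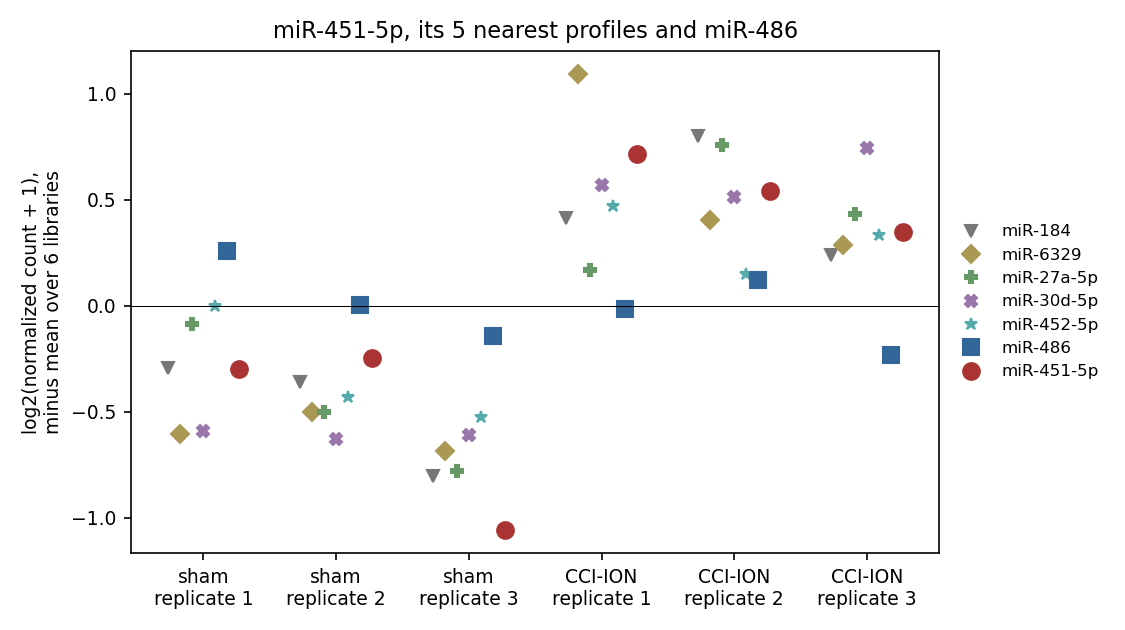
log2(normalized count + 1) of each miRNA minus its mean over the 6 libraries, per library, for miR-451-5p, the 5 miRNAs with the nearest profiles and miR-486. miR-451-5p runs from -1.06 in sham replicate 3 to 0.72 in CCI-ION replicate 1, and miR-486 stays between -0.23 and 0.26 with both groups mixed.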

How the data were processed

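Small RNA of ARC tissue was sequenced in 3 sham and 3 CCI-ION libraries, grouped by the sample labels. The submitters' processing notes name cutadapt 1.14, Bowtie 1.1.1 and genome build rn6; the miRNA annotation, counting rule and normalization are not given in the sources used here. The authors deposited 1 signal value per mature miRNA and library. Within a library all values were whole multiples of a step (largest deviation 0.000454 of a read), and the steps equalled inverse median-of-ratios factors over the 485 miRNAs above 0 throughout (0.821 to 1.20). They were thus read as counts over size factors, which gave the reads quoted.

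Log2(normalized count + 1) was compared with limma 3.58.1 in R 4.3.3, two-sided, without covariates, for 555 miRNAs (mean normalized count of 1 or more). P-values were adjusted over all of them by Benjamini-Hochberg (threshold 0.05). On this scale changes of low miRNAs are understated. On simulated data for CCI-ION over sham, with 555 miRNAs of which 200 changed by 1 on the log2 scale, the test called 177, with 5 false calls. The edgeR and DESeq2 tests planned for recovered reads were not run, because no value stands for 1 to 4 reads, so the worth of 1 read was inferred and not seen directly. Ratios were compared by exact permutation tests over all 20 assignments. Binomial intervals are Clopper-Pearson (scipy 1.17.1), and hairpins were folded with RNAfold 2.7.2. Sequences of 512 of the 562 miRNAs were matched by name to RefSeq (GRCr8).

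The members and lists were chosen with earlier results of these data known. Named were the members, miR-23a-3p, the 3 most abundant and any called miRNA of each list, and the 5 nearest profiles of miR-451-5p; other names were chosen after their values were seen. Libraries of a group differed beyond sampling noise. Alternatives were total-count and upper-quartile scaling, no filter, a mean of at least 10, a block for the replicate number, a pseudocount of 0.1 and each library left out. The ratios other than those of miR-144-5p to miR-451-5p and miR-451-5p to miR-23a-3p, an intensity trend and 2.5 reads in place of 0 were added after seeing the data.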

Additional observations from a re-analysis of the deposited data

How the results depend on the processing

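miR-451-5p kept its direction in all 14 alternatives, between 0.81 and 1.27, but not its side of the threshold. It passed with total-count scaling (1.27, limma adjusted p = 0.0411), with a mean of at least 10 (1.07, adjusted p = 0.0395) and with an intensity trend in the variance, an alternative picked once the data had been seen (1.07, adjusted p = 0.0240). With each library left out it ran from 0.81, without sham replicate 3, to 1.21, with adjusted p from 0.101 to 0.144 (limma). miR-486 changed sign to 0.12 with total-count scaling, was -0.33 with upper-quartile scaling and ran from -0.17 to 0.028 with each library left out, the values above 0 being 0.028 (sham replicate 1 left out) and 0.014 (CCI-ION replicate 3 left out). It passed the threshold in none of the 14. miR-144-5p ran from -2.19 to -0.38 and did not pass in the 13 alternatives that kept it; a mean of at least 10 left it out.

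Calls numbered 94 with upper-quartile scaling, 63 with a mean of at least 10, 88 with the intensity trend, and 7 to 43 with each library left out. Higher calls were 82.4% of all calls with total-count scaling and 10.6% with upper-quartile scaling, against 50% as reported, and the median over all 555 miRNAs moved from -0.01 to 0.17 and -0.25 (log2 fold change). Other sign changes were miR-9a-5p to 0.036 with total counts, and with upper quartiles miR-145-3p to -0.13, miR-155-5p to -0.19, miR-23a-3p to -0.028 and miR-25-3p to -0.0024. With each library left out miR-155-5p ran from -0.11 (CCI-ION replicate 2 out) to 0.20 and was -0.054 with sham replicate 2 out. The median of the leukocyte and platelet list was -0.19 with upper quartiles and ran from -0.04 (sham replicate 2 out) to 0.20 with each library left out. That of the oligodendrocyte list was -0.75 with 2.5 reads in place of 0 and -0.56 over miRNAs averaging 10 or more.

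With the replicate block 3 miRNAs passed, miR-451-5p kept 1.07 (limma adjusted p = 0.0981), the calls of miR-143-3p, miR-145-5p, miR-124-3p and miR-338-3p were lost (adjusted p of 0.0891, 0.125, 0.136 and 0.0823), and same-numbered libraries deviated together in 1 pair only (correlations -0.09, 0.30 and -0.18), which does not make them pairs. The ratios of miR-486 and miR-144-5p to miR-451-5p and of miR-451-5p to miR-23a-3p kept their direction with a pseudocount of 0.1 and with each library left out; the other 4 ratios were not recomputed. The ratio of miR-144-5p to miR-451-5p was -3.26 with that pseudocount and ran from -3.41 to -1.56 with each library left out. The cause was not tested. miR-144-5p lay at the detection limit: it had 6 to 10 reads in 3 libraries and was listed at 0 in the other 3.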
